A study of Mus musculus with 3 samples.

Results

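The genes described here encode ribosome biogenesis and rRNA processing factors, namely the Nop, Utp, Rrp, Noc, Exosc and part of the Nol families of nucleolar proteins. They were chosen by symbol alone (names starting with Nop, Utp, Rrp, Noc or Exosc followed by a digit, and *Nol6* to *Nol12*), with at least 10 unique molecular identifiers (UMIs, counts of captured RNA molecules) over the libraries. Of the 31053 genes in the table, 46 carried such a symbol and 45 had enough UMIs. All 45 had at least 56 UMIs in every library, so the minimum removed 1 gene only, *Exosc6*, a ring subunit of the RNA exosome, with 0 UMIs in all 3 libraries. Its annotated span (GRCm38, chr8:111056339-111057664, plus strand) overlaps an exon of *Aars* on the same strand. The extent of this overlap was not measured, and the count of 0 was not read as absence of the transcript. Each of the 45 genes is protein coding, and together they lie on 18 chromosomes.

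The study asked which genes respond when CD4+ T cells are activated and what the loss of IFT20, an intraflagellar transport protein, does to that response. Naive-enriched CD4+ T cells from spleens of C57BL/6 mice were sorted as 7AAD-, CD3+ and CD4+ cells, and 1 single-cell RNA library was made per group. The 0hr-WT library held cells of Ift20 f/f mice kept in DPBS (0 h), the 24hr-WT library cells of Ift20 f/f mice held for 24 h with antibodies to CD3 and CD28, each at 1 μg/mL, and the 24hr-KO library cells of Ift20 f/f CD4 cre mice stimulated in the same way. All groups thus carried the floxed allele, and Cre was driven by *Cd4* regulatory sequences, which are active from the thymus onwards, so Cre was active before the stimulation. The methods describe male mice of 5 to 10 weeks for all experiments, and whether animals were pooled for a library is not given in the sources used here. No unstimulated knockout library was analysed, so a difference that was already there before stimulation cannot be told apart from one in the response. There was also no library of cells held for 24 h without the antibodies, so stimulation cannot be told apart from time in culture. What is called stimulation below is 24hr-WT over 0hr-WT. With 1 library per group there is no replicate and no test, and every 95% interval below covers counting error only.

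After the filter of the study's methods (over 200 genes, mitochondrial UMIs below 15%) there were 8031, 9903 and 13920 barcodes of 0hr-WT, 24hr-WT and 24hr-KO left, with medians of 4627, 12167 and 5014.5 UMIs. The libraries shared 114 to 197 barcode sequences pairwise, at most 1.99% of the smaller library. In counts per 1000000 UMIs (CPM), *Ift20* stood at 64.4 CPM in 0hr-WT, 76.0 in 24hr-WT and 6.60 in 24hr-KO. Among the defining markers, *Cd3e* was detected at 905 CPM or more in every library, *Hbb-bs* of red blood cells had 0 UMIs, and the 5 markers of other cells that had 10 or more UMIs summed to between 88.4 and 110 CPM. Of 5 activation markers 4 were higher in 24hr-WT than in 0hr-WT, with a median log2 ratio of 2.52, and *Cd44* was at -0.31 (-0.45 to -0.17).

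A ribosome is built in the nucleolus, where RNA polymerase I makes a long precursor that is folded, chemically modified by small nucleolar ribonucleoproteins (snoRNPs), cut by nucleases and packed with ribosomal proteins. The small subunit processome, with its UTP-A and UTP-B modules, holds the part of the precursor that becomes the small subunit, a separate set of factors assembles the large subunit, and the RNA exosome trims and degrades the spacers. A resting T cell is small and makes few ribosomes, and entry into growth after antigen receptor stimulation is known for a large nucleolus and high ribosome production.

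Transcripts of nearly all of these factors took a larger share of the UMIs in the stimulated than in the unstimulated WT library. Together the 45 genes stood at 2569 CPM in 0hr-WT, 5533 in 24hr-WT and 5260.1 in 24hr-KO, or 0.257%, 0.553% and 0.526% of all UMIs. The stimulated WT library was thus 2.15-fold above the unstimulated one (log2 ratio 1.11, interval 1.10 to 1.12). Per kept barcode the same genes gave 11.9, 65.4 and 40.2 UMIs, a figure that also contains the unequal depth of the libraries. The log2 ratio of 24hr-WT over 0hr-WT was above 0 for 44 of the 45 genes, against 46% of the 13898 genes with 10 or more UMIs. At least 2-fold higher were 23 of the 45 genes, against 18.7% of all genes, and 0 were at least 2-fold lower, against 23.7%. The median log2 ratio of the 45 genes was 1.06, that of all genes -0.11, and each of the 45 lay above the latter. The interval lay above 0 for 44 genes (36.1% of all genes) and below 0 for *Nop53* alone (42.4%). All genes were not matched to the 45 genes in number of UMIs.

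**Figure D1:**
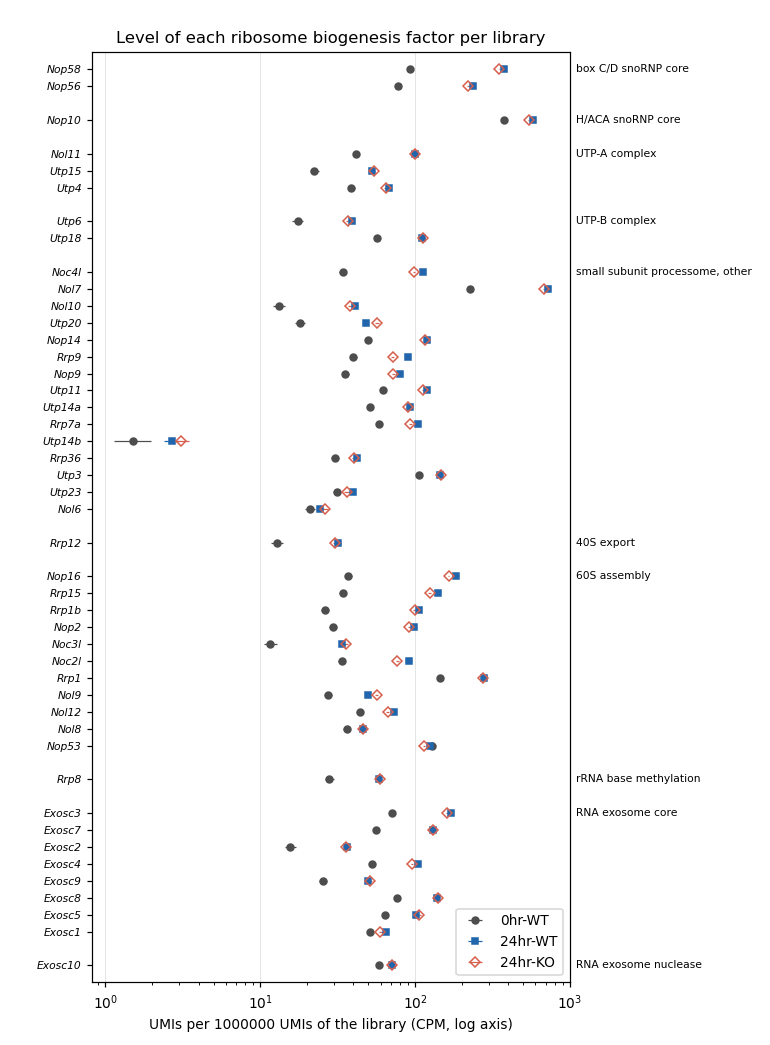
Level of each of the 45 genes in CPM (log axis) in the 0hr-WT, 24hr-WT and 24hr-KO library, grouped by role, with bars for the 95% Poisson interval of the UMIs. The unstimulated library sits to the left of both stimulated libraries in every row but that of *Nop53*, while the points of 24hr-WT and 24hr-KO lie close together.

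*Nop58* and *Nop56* form the paired scaffold of box C/D snoRNPs, which place ribose methyl groups on rRNA. *Nop58* was counted at 93.5 CPM in 0hr-WT, 376 in 24hr-WT and 351 in 24hr-KO. *Nop56* was at 77.6 CPM in 0hr-WT, 236 in 24hr-WT and 221 in 24hr-KO. For both, the unstimulated library was the low one and the stimulated libraries were near each other, with log2 ratios of stimulated over unstimulated WT of 2.01 (1.96 to 2.06) and 1.60 (1.55 to 1.66). *Nop10*, a small protein of the H/ACA snoRNPs that turn uridine into pseudouridine and of telomerase, had 376 CPM in 0hr-WT, 578 in 24hr-WT and 542 in 24hr-KO, a log2 ratio of 0.62 (0.59 to 0.65). Its shift with stimulation was the smallest of the 3 snoRNP genes. Both box C/D genes hold snoRNA genes within their span on the same strand, 5 in *Nop56*, among them *Snord57* and *Snord110*, and 4 in *Nop58*, among them *Snord11* and *Snord70*. These snoRNAs were not measured here.

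UTP-A is the module that first meets the nascent precursor. *Nol11*, 1 of its subunits, was counted at 41.6 CPM in 0hr-WT, 99.6 in 24hr-WT and 100.4 in 24hr-KO, with a log2 ratio for stimulation of 1.26 (1.18 to 1.34). *Utp15* was close to it at 1.24 (1.14 to 1.35). *Utp4*, whose human counterpart is mutated in a childhood cirrhosis, was at 38.8 CPM in 0hr-WT, 68.0 in 24hr-WT and 64.8 in 24hr-KO, and its log2 ratio of 0.81 (0.73 to 0.89) lay below the intervals of the other UTP-A genes. In UTP-B, which joins next, *Utp6* had a ratio of 1.16 (1.04 to 1.28) and *Utp18* one of 0.97 (0.90 to 1.03). All 5 genes of both modules were thus higher in the stimulated library, 3 of them at least 2-fold (46% and 18.7% of all genes).

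The other 15 small subunit factors were all higher in 24hr-WT, against 46% of all genes. Their log2 ratios ran from 1.71 down to 0.22, with a median of 0.96. *Noc4l* and *Nop14* bind each other in the processome. *Noc4l* was at 34.1 CPM in 0hr-WT, 112 in 24hr-WT and 98.4 in 24hr-KO, a log2 ratio for stimulation of 1.71 (1.63 to 1.80). *Nop14* was at 49.6 CPM in 0hr-WT, 119.9 in 24hr-WT and 116 in 24hr-KO, a ratio of 1.27 (1.20 to 1.34). For both, the unstimulated library was the lowest of the 3, and 24hr-KO lay below 24hr-WT. *Nol7* and *Nol10* stood beside them at 1.68 (1.64 to 1.71) and 1.63 (1.50 to 1.77). *Utp20*, a very large scaffold protein, was at 18.0 CPM in 0hr-WT, 48.4 in 24hr-WT and 56.8 in 24hr-KO, a log2 ratio for stimulation of 1.43 (1.31 to 1.54). *Rrp9*, a protein of the U3 snoRNP that guides the early cuts, had 40.1 CPM in 0hr-WT, 90.4 in 24hr-WT and 71.7 in 24hr-KO. Its stimulated WT level was the highest of the 3, and the ratio was 1.17 (1.10 to 1.253). The RNA-binding protein *Nop9* was at 1.17 (1.08 to 1.252). Just below 2-fold lay *Utp11* at 0.96 (0.90 to 1.02), *Utp14a* at 0.85 (0.78 to 0.92) and *Rrp7a* at 0.84 (0.77 to 0.91). The lowest shifts in the group were those of *Rrp36* (0.46), *Utp3* (0.46), *Utp23* (0.33) and *Nol6* (0.22). *Utp23*, which in yeast helps release a snoRNA from the precursor, was at 31.6 CPM in 0hr-WT, 39.8 in 24hr-WT and 36.2 in 24hr-KO. *Nol6*, a protein of the early processome, had 21.0 CPM in 0hr-WT, 24.4 in 24hr-WT and 26.3 in 24hr-KO, so its 3 libraries lay close together although the intervals of the WT libraries did not overlap.

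*Utp14b* is a retrocopy of *Utp14a*, a helicase activator of the processome, and is known for its role in spermatogenesis. It had by far the fewest UMIs of the 45 genes, 56 in 0hr-WT, 314 in 24hr-WT and 330 in 24hr-KO, or 1.51 CPM in 0hr-WT, 2.68 in 24hr-WT and 3.1 in 24hr-KO. The interval of its log2 ratio for stimulation was correspondingly wide, 0.83 (0.42 to 1.27). The longest open reading frames of the annotated transcripts of *Utp14a* and *Utp14b*, 2304 and 2343 bases, were identical at 77.9% of 2250 aligned bases, and *Utp14b* shares exon sequence on the same strand with *Acsl3*, so its counts are the least certain of the set. *Utp14a* itself was at 51.4 CPM in 0hr-WT, 92.8 in 24hr-WT and 90.6 in 24hr-KO.

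Factors of the large subunit held 4 of the 5 highest ratios. *Nop16* (ENSMUSG00000025869, GRCm38 chr13:54584185-54590090, minus strand) was counted at 37.03 CPM in 0hr-WT, 184 in 24hr-WT and 165 in 24hr-KO, and its log2 ratio for stimulation, 2.31 (2.23 to 2.39), a 4.97-fold difference, was the highest of the 45. *Rrp15* followed with 34.2 CPM in 0hr-WT, 141 in 24hr-WT and 124 in 24hr-KO and a ratio of 2.05 (1.97 to 2.13). *Rrp1b* was at 26.3 CPM in 0hr-WT, 106 in 24hr-WT and 99.5 in 24hr-KO, a ratio of 2.01 (1.91 to 2.10). In each of these 3 genes both stimulated libraries were far above the unstimulated one, and the KO library was the lower of the stimulated pair. *Nop2*, the methyltransferase that modifies a cytosine of the large rRNA, had 29.5 CPM in 0hr-WT, 99.3 in 24hr-WT and 91.7 in 24hr-KO, a ratio of 1.75 (1.66 to 1.84). *Noc2l* and *Noc3l*, which escort precursors of the large subunit from the nucleolus to the nucleoplasm, had ratios of 1.44 (1.36 to 1.53) and 1.54 (1.40 to 1.69). *Rrp1*, the paralog of *Rrp1b*, was at 145 CPM in 0hr-WT, 281 in 24hr-WT and 276 in 24hr-KO. Its ratio of 0.95 (0.91 to 0.99) was less than that of *Rrp1b*, and their intervals did not meet. *Nol9*, an RNA kinase that acts in the processing of the spacer of the large subunit, had 27.6 CPM in 0hr-WT, 49.9 in 24hr-WT and 56.6 in 24hr-KO, a ratio of 0.86 (0.76 to 0.95). The nuclease *Nol12* was at 0.73 (0.66 to 0.81) and *Nol8* at 0.35 (0.26 to 0.44).

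*Nop53* was the exception. It recruits the exosome to the large subunit precursor and binds a ribosomal protein that inhibits Mdm2. Its level was 129 CPM in 0hr-WT, 125 in 24hr-WT and 114 in 24hr-KO, so that the unstimulated library was the highest of the 3. The log2 ratio of -0.049 (-0.096 to -0.0014) was above the median of all genes, and with median-ratio scaling it had the other sign, at 0.12. Of the 11 large subunit factors 10 were higher in 24hr-WT and 6 at least 2-fold so (46% and 18.7% of all genes). Their median was 1.44.

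*Rrp12*, known from yeast for its part in the export of ribosomal subunits, was at 12.9 CPM in 0hr-WT, 32.0 in 24hr-WT and 30.6 in 24hr-KO, a ratio of 1.31 (1.17 to 1.45). *Rrp8*, which methylates an adenine of the large rRNA and takes part in silencing of rRNA genes, had a ratio of 1.06 (0.97 to 1.16), the median of the set.

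The RNA exosome consists of a ring, a cap of RNA-binding subunits and associated nucleases. Its cap subunits spanned the whole range of the core. *Exosc3* was at 71.2 CPM in 0hr-WT, 170.4 in 24hr-WT and 160.2 in 24hr-KO, with a ratio for stimulation of 1.26 (1.20 to 1.32), and *Exosc2* was at 1.22 (1.10 to 1.35). *Exosc1*, the remaining cap subunit, was at 51.2 CPM in 0hr-WT, 64.7 in 24hr-WT and 59.9 in 24hr-KO, and its ratio of 0.34 (0.27 to 0.41) was well under those of the other caps. Among the ring subunits the ratio was 1.24 (1.17 to 1.30) for *Exosc7*, 0.98 (0.92 to 1.05) for *Exosc4*, 0.96 (0.86 to 1.06) for *Exosc9* and 0.86 (0.80 to 0.92) for *Exosc8*. *Exosc5*, also of the ring, stood at 64.5 CPM in 0hr-WT, 102 in 24hr-WT and 107 in 24hr-KO, a ratio of 0.66 (0.59 to 0.72). Subunits of the same complex thus differed from each other in their ratio, and the intervals of *Exosc3* and *Exosc1*, for example, did not meet. *Exosc10*, the nuclear nuclease bound to the ring, had 59.0 CPM in 0hr-WT, 71.1 in 24hr-WT and 70.7 in 24hr-KO, a ratio of 0.27 (0.20 to 0.34). All 8 core genes were higher in 24hr-WT, 3 of them at least 2-fold (46% and 18.7% of all genes), with a median of 0.97.

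**Figure D2:**
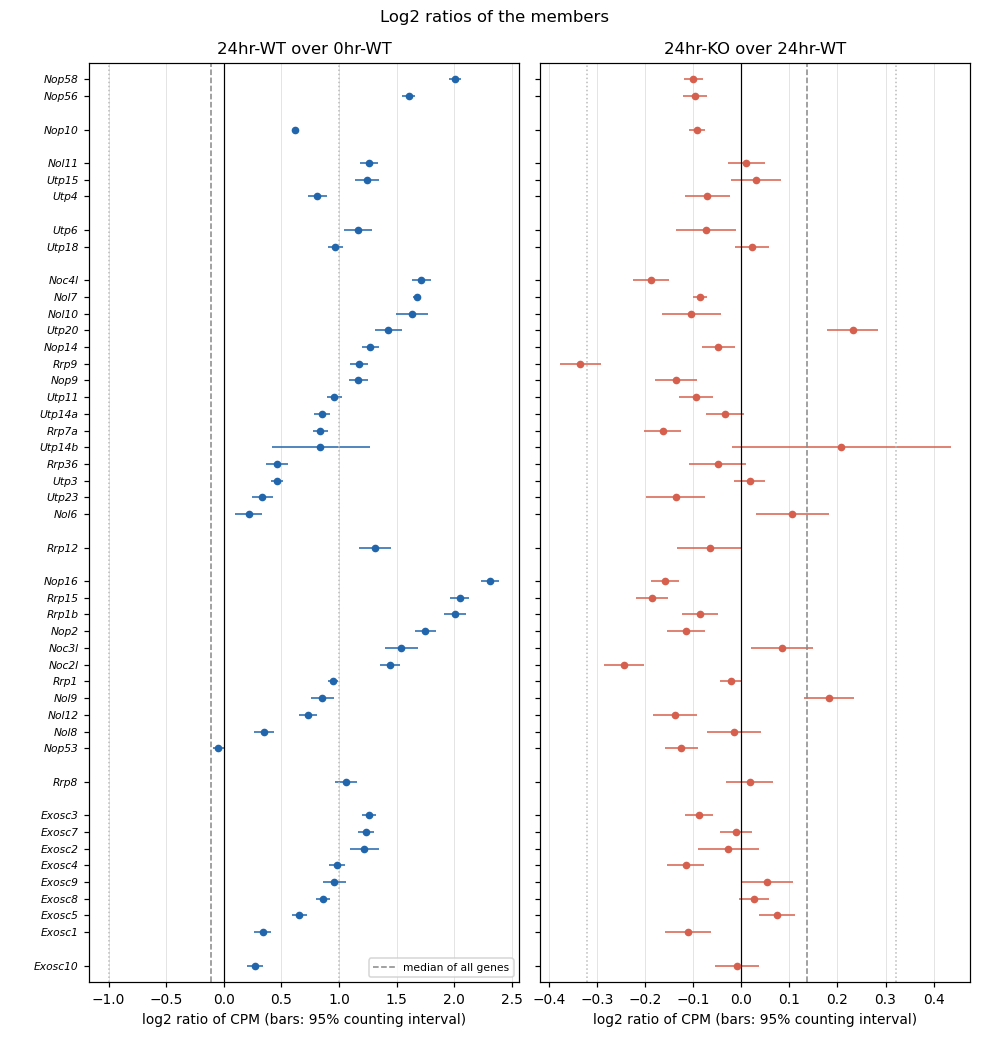
Log2 ratio of CPM for each gene, on the left 24hr-WT over 0hr-WT and on the right 24hr-KO over 24hr-WT on a narrower axis, with 95% counting intervals. The dashed line is the median of all genes (-0.11 and 0.14) and the dotted lines mark log2 ratios of 1 on the left and 0.32 on the right. All 45 genes lie right of the dashed line on the left side, and 42 of 45 lie left of it on the right side.

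The promoters of the genes were read to see what sequence they share. RefSeq windows on GRCm38.p6, from 250 bases before to 50 after the transcription start, were at hand for 37 of the 45. CACGTG, a palindrome known as the E box of Myc and related factors, was in 8 of the 37 (21.6%), against 8.09% of all 27025 genes with a window and 11.8% of the 10152 that also had 10 or more UMIs. CCGGAAG or its reverse complement CTTCCGG, the core bound by Ets family factors, was in 13 (35.1%), against 9.93% and 20.4%. TATAAA on either strand was in 3 (8.11%), against 15.7% and 8.51%, and CCAAT on either strand in 13 (35.1%), against 41.1% and 42.9%. CACGTG reads the same on both strands, the motifs were searched separately so that matches could overlap, and a match shows only that the letters are there. The median log2 ratio for stimulation was 0.90 in the 8 genes with CACGTG and 1.22 in the 29 without, and it was 1.26 in the 13 genes with CCGGAAG and 1.17 in the 24 without. *Myc*, a transcription factor of cell growth, was at 75.6 CPM in 0hr-WT, 264 in 24hr-WT and 219.9 in 24hr-KO.

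The stretch of 250 bases before the start is printed for 4 genes, 5′ to 3′ on the strand of the gene, with CACGTG and CCGGAAG (either strand) in capitals. *Nop2* (chr6:125131633-125131882, plus strand) and *Utp18* (chr11:93885767-93886016, minus strand) hold both motifs, *Nol11* (chr11:107189382-107189631, minus strand) holds CACGTG alone, and *Nop16* (chr13:54590075-54590324, minus strand), with the highest ratio of the set, holds neither.
Nop2: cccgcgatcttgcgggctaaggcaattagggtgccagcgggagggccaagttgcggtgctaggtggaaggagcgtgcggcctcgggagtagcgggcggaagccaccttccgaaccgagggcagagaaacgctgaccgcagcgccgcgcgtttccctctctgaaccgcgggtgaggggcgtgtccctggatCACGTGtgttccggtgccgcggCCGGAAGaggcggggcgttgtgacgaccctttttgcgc
Utp18: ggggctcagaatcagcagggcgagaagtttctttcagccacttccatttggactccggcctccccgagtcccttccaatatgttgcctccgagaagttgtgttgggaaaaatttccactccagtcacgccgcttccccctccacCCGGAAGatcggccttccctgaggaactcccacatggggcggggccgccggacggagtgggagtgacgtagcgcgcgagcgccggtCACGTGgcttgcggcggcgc
Nol11: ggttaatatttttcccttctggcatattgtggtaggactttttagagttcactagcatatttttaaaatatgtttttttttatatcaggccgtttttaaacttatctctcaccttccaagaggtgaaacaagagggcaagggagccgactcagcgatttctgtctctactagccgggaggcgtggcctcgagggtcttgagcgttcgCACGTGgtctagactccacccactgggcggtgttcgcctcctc
Nop16: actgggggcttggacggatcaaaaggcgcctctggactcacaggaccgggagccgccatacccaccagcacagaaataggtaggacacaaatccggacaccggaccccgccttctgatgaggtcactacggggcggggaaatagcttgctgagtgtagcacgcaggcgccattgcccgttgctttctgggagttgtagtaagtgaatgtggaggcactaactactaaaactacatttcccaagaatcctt
CACGTG begins 60 bases before the start in *Nop2*, 20 in *Utp18* and 43 in *Nol11*, and CCGGAAG begins 38 bases before it in *Nop2* and 106 in *Utp18*. The log2 ratio for stimulation was 1.75 for *Nop2*, 0.97 for *Utp18*, 1.26 for *Nol11* and 2.31 for *Nop16*.

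Other genes of the pathway, from lists that leave out the Nop, Utp, Rrp, Noc, Exosc and Nol members above, showed how far the pattern extended. Of all genes, 46% were higher in 24hr-WT, 18.7% at least 2-fold higher and 23.7% at least 2-fold lower. All 9 measured further snoRNP proteins and snoRNP assembly factors were at least 2-fold higher in 24hr-WT, with a median log2 ratio of 1.82. The highest were *Naf1*, an assembly factor of H/ACA snoRNPs, at 2.50 (2.35 to 2.67), and *Gar1*, a core protein of the same particles, at 2.29 (2.23 to 2.35), and the ribose methyltransferase *Fbl* was the lowest at 1.35 (1.31 to 1.38). Of 6 abundant nucleolar proteins 4 were at least 2-fold higher, with *Ncl* (nucleolin) at 294 CPM in 0hr-WT, 1485 in 24hr-WT and 1479 in 24hr-KO, a ratio of 2.34 (2.31 to 2.37), while *Surf6* was at -0.057 (-0.17 to 0.053). Of 40 further large subunit factors 39 were higher and 21 at least 2-fold so, with a median of 1.04, led by *Tma16* (2.10) and *Mrto4* (2.06), while the lowest, *Wdr74*, was at -0.35 (-0.92 to 0.25) with under 1 CPM in every library. Of 32 further small subunit factors 30 were higher and 14 at least 2-fold so, with a median of 0.80, from *Pno1* at 2.19 to *Ngdn* at -0.57. RNA polymerase I and its factors had a lower median of 0.36, with 11 of 15 genes higher, 4 at least 2-fold higher, led by *Cd3eap* (1.61), and *Taf1c* (-1.03) at least 2-fold lower. The list of exosome cofactors and related RNA nucleases had 8 of 16 genes higher and 8 lower. Its median of -0.12 was near that of all genes. It ran from *Dis3*, a catalytic subunit, at 1.93 to *Skiv2l*, the helicase of the cytoplasmic exosome, at -0.89.

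**Figure D3:**
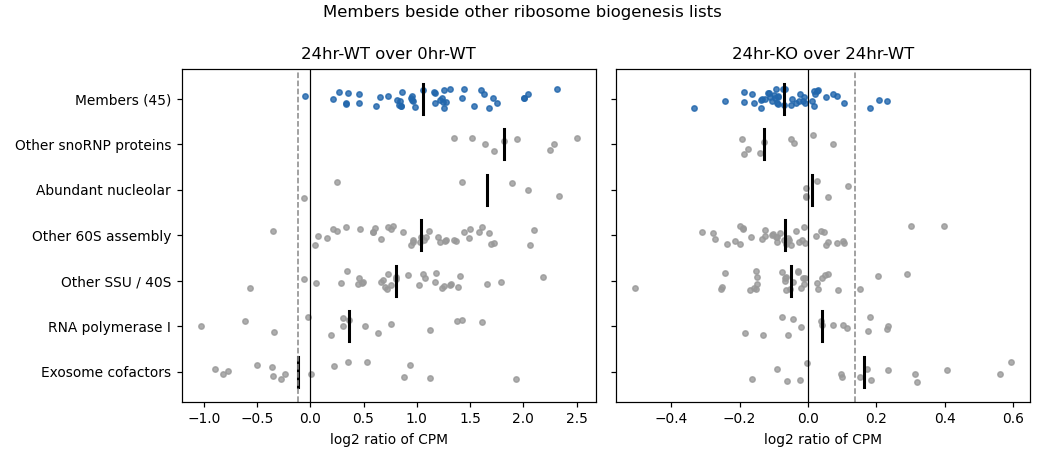
Log2 ratios of CPM for the 45 genes and for 6 lists of other ribosome biogenesis genes, 1 point per gene, on the left 24hr-WT over 0hr-WT and on the right 24hr-KO over 24hr-WT. Black bars are the medians of the lists and the dashed line is the median of all genes. The exosome cofactors center on the dashed line on the left side, with a median of -0.12, and the snoRNP proteins lie farthest to the right.

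The second comparison set the stimulated knockout against the stimulated WT library. It shares the 24hr-WT library with the first, so the comparisons are not independent of each other. All of these factors were detected in 24hr-KO, with shares of the library's UMIs near those in 24hr-WT. Per kept barcode they gave 65.4 UMIs in 24hr-WT and 40.2 in 24hr-KO, which also contains the unequal depth. The summed log2 ratio of 24hr-KO over 24hr-WT was -0.073 (-0.078 to -0.068), and the median over the 45 genes was -0.071, while that of all genes was 0.14. Below 0 were 32 genes, against 31.9% of all genes, and above 0 were 13, against 68.1%. The interval lay below 0 for 24 genes (15.6% of all genes), above 0 for 6 (43.9%) and across 0 for 15. Lower by a log2 ratio of 0.32 or more was 1 gene, against 6.98% of all genes, and higher by as much were 0, against 30.6%. The reference of all genes was not matched to the 45 genes in number of UMIs and includes genes with far fewer. How much of these contrasts comes from that was not tested. All 45 genes lay between -0.33 and 0.23 on the log2 scale.

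*Rrp9* (ENSMUSG00000041506, chr9:106475963-106485424, plus strand) was the lowest, with 90.4 CPM in 24hr-WT and 71.7 in 24hr-KO, a log2 ratio of -0.33 (-0.38 to -0.29). *Noc2l* was next at 91.0 CPM in 24hr-WT and 76.9 in 24hr-KO, a ratio of -0.24 (-0.29 to -0.20), followed by *Noc4l* at -0.19 (-0.23 to -0.15), *Rrp15* at -0.19 (-0.22 to -0.15) and *Rrp7a* at -0.16 (-0.20 to -0.13). *Nop16*, with the highest ratio for stimulation, was at -0.16 (-0.19 to -0.13). The other end was held by *Utp20* (ENSMUSG00000004356, chr10:88746607-88826804, minus strand), with 48.4 CPM in 24hr-WT and 56.8 in 24hr-KO and a ratio of 0.23 (0.18 to 0.28), by *Utp14b* at 0.21 (-0.019 to 0.44) and by *Nol9* at 0.18 (0.13 to 0.23). These 3 genes were the only ones above the median of all genes. *Nol6* at 0.11 (0.030 to 0.18) and *Noc3l* at 0.085 (0.021 to 0.15) came after them. For *Utp14b* the interval included 0, with 314 and 330 UMIs behind the ratio. With median-ratio scaling of the libraries, 10 of the genes above 0 were below it, which left 3 higher and 42 lower. With each barcode thinned to 1400 UMIs, 21 genes were higher and 24 lower. The median of all genes was -0.034 with median-ratio scaling and 0.15 after thinning. The share of all genes below 0 under either is not given here, so these counts cannot be set against it.

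Of all genes, 31.9% were lower in 24hr-KO than in 24hr-WT, the share to set beside the counts that follow. By role, the median ratio of 24hr-KO over 24hr-WT was -0.098 over the pair of box C/D genes and -0.092 for *Nop10*. It was -0.12 for the large subunit factors (9 of 11 lower) and -0.087 for the other small subunit factors (11 of 15 lower). UTP-A and UTP-B had medians of 0.010 and -0.026, *Rrp12* was at -0.066 (-0.13 to 0.0022) and *Rrp8* at 0.017 (-0.033 to 0.067). The exosome core had a median of -0.019, with *Exosc5* at 0.074 (0.037 to 0.11) and *Exosc3* at -0.089 (-0.12 to -0.059), and *Exosc10* was at -0.0094 (-0.055 to 0.036). Among the other lists, the snoRNP proteins had a median of -0.13 with 7 of 9 lower, the further large subunit factors -0.067 with 30 of 40 lower and the further small subunit factors -0.049 with 23 of 32 lower. Abundant nucleolar proteins were at 0.010, RNA polymerase I and its factors at 0.042, and the exosome cofactors at 0.16 with 11 of 16 higher, near the 0.14 and 68.1% of all genes. The ratio of *Myc* was -0.26 (-0.29 to -0.24). Of the 5 activation markers 4 were lower in 24hr-KO, with a median of -0.29, among them *Il2* at -0.81 (-0.85 to -0.77) and *Nr4a1* at -0.50 (-0.53 to -0.46), and *Il2ra* was at 0.13 (0.099 to 0.15). Their part in the lower ratios of the 45 genes was not tested.

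The libraries differed in how their UMIs were spread over barcodes, and this moved with the second comparison. Barcodes under 4000 UMIs made up 33.1% of 0hr-WT, 23.2% of 24hr-WT and 47.8% of 24hr-KO, and in the stimulated libraries their median share of mitochondrial UMIs was 10.3% in WT and 5.67% in KO, against 1.24% and 1.05% in barcodes of 8000 UMIs or more. The summed level of the 45 genes in 24hr-WT was 4263 CPM in barcodes under 2000 UMIs and 4119, 4294, 5365 and 5893 in the classes that begin at 2000, 4000, 8000 and 16000 UMIs. In 24hr-KO the same classes had 4911, 4559, 4509, 5343 and 5682 CPM, and in 0hr-WT 2375, 2605, 2549, 2671 and 3034. Deep barcodes of the stimulated libraries thus gave these genes a larger share of their UMIs than shallow ones.

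**Figure D4:**
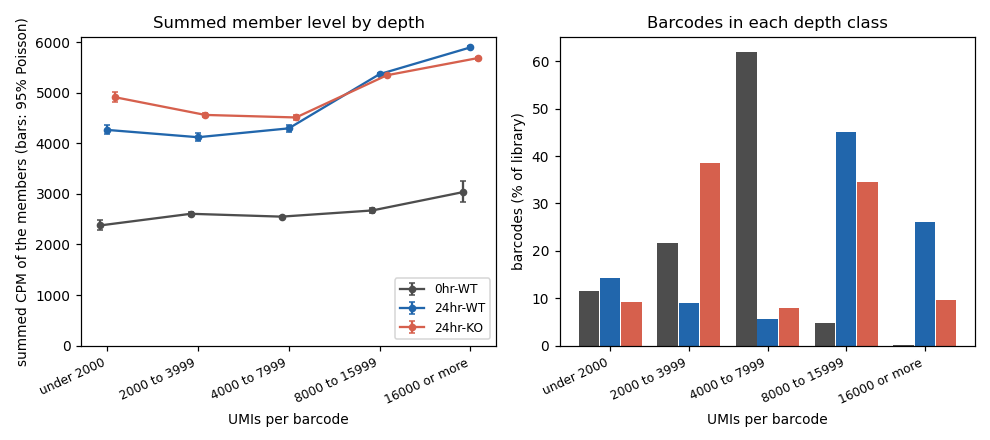
On the left, summed level of the 45 genes in CPM by UMIs per barcode in each library (0hr-WT grey, 24hr-WT blue, 24hr-KO red), with 95% Poisson intervals, and on the right the share of each library's barcodes in each class, in the same colors. The KO line is above the WT line in the 3 shallow classes and below it from 8000 UMIs on, and the KO library has 38.6% of its barcodes in the class that begins at 2000 UMIs.

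Stimulation kept its direction in each class, with summed log2 ratios of 0.84, 0.66, 0.75, 1.01 and 0.96 from the shallowest to the deepest and 41, 38, 42, 42 and 42 of the 45 genes higher, against 45.3%, 64.6%, 48.4%, 43.9% and 37.6% of all genes. Above the median of all genes in the class were 42, 29, 43, 44 and 44 of the 45. In the class that begins at 2000 UMIs the median was 0.77 over the 45 genes and 0.48 over all genes. The knockout comparison did not keep its direction. Its summed log2 ratio was 0.20 (0.16 to 0.24), 0.15 (0.12 to 0.18), 0.071 (0.043 to 0.099), -0.0059 (-0.013 to 0.0014) and -0.053 (-0.061 to -0.044) from the shallowest to the deepest class. In these classes 28, 32, 32, 23 and 10 of the 45 genes were higher in 24hr-KO, against 39.1%, 47.9%, 69.1%, 60.6% and 55.9% of all genes. In barcodes of 8000 UMIs or more, the median over the 45 genes was -0.045. There 34 were lower against 42% of all genes, and 24 intervals lay below 0 against 17.4%. Past 0.32 on the log2 scale were 0 of them, and the share of all genes past it is not given here. The part of the unequal depth in the pooled ratio was not tested beyond these values.

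Single genes behaved differently in this respect. *Rrp9* was also the lowest gene in the barcodes of 8000 UMIs or more, at -0.27 (-0.31 to -0.22), but it was at 0.023 (-0.19 to 0.24) in those under 4000. *Noc2l* was at -0.16 (-0.21 to -0.12) and *Noc4l* at -0.12 (-0.16 to -0.084) in the deep barcodes. *Utp20*, the highest gene in the pooled ratio, had 0.076 (0.016 to 0.14) in the deep and -0.13 (-0.27 to 0.024) in the shallow barcodes, and *Nol9* had 0.051 (-0.0075 to 0.11) and -0.014 (-0.17 to 0.15). *Exosc5*, at 0.11 (0.071 to 0.15), was the highest of the deep barcodes. In the class that begins at 8000 UMIs alone, *Utp20* was the highest at 0.19 (0.10 to 0.27), and *Exosc5* was at 0.086 (0.034 to 0.14). In the barcodes under 4000 UMIs, *Rrp1* reached 0.43 (0.32 to 0.55) and *Nop16* 0.41 (0.25 to 0.57), while *Nol11* was the lowest at -0.25 (-0.38 to -0.12). There 32 genes were higher and 13 lower, with 15 intervals above 0 and 4 below it. The share of all genes in these barcodes is not given here. Neither the shallow nor the deep barcodes of the libraries were matched in depth. Of those under 4000 UMIs, 1414 of 2299 in 24hr-WT and 1279 of 6652 in 24hr-KO were under 2000.

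Within a stimulated library, the 45 genes split by depth. The median log2 ratio of barcodes with 8000 UMIs or more over those under 4000 was 0.24 in 24hr-WT and 0.13 in 24hr-KO, against -0.86 and -0.65 for all genes, and 0.026 against -0.23 in 0hr-WT. The interval lay above 0 for 25 of the 45 genes in either stimulated library (18.2% and 17.5% of all genes) and for 8 in 0hr-WT (7.33%), and below 0 for 11, 16 and 3 genes in 24hr-WT, 24hr-KO and 0hr-WT (53.8%, 60.6% and 31%). *Nop16* was at 86.4 CPM in the shallow and 189.5 in the deep barcodes of 24hr-WT, a log2 ratio of 1.13 (0.99 to 1.28), and at 115 and 178 CPM in those of 24hr-KO, a log2 ratio of 0.64 (0.57 to 0.71). *Rrp15* was at 74.6 CPM in the shallow and 146 in the deep barcodes of 24hr-WT, a log2 ratio of 0.96 (0.81 to 1.13). *Utp20* went the other way, at 110.4 CPM in the shallow and 46.5 in the deep barcodes of 24hr-WT, a log2 ratio of -1.247 (-1.38 to -1.11), and at 101 and 49.0 CPM in those of 24hr-KO, a log2 ratio of -1.05 (-1.13 to -0.96). *Nol9* was like *Utp20*, at 91.7 CPM in the shallow and 48.6 in the deep barcodes of 24hr-WT, a log2 ratio of -0.91 (-1.06 to -0.76), and so was *Utp14b*, at 4.79 CPM in the shallow and 2.62 in the deep barcodes of 24hr-WT, a log2 ratio of -0.87 (-1.51 to -0.15). Across the 45 genes, Pearson's r between this ratio in 24hr-WT and in 24hr-KO was 0.967. The points share the depth classes and the share of mitochondrial UMIs that goes with them, and genes are not replicates. Between the ratio of 24hr-KO over 24hr-WT and the deep over shallow ratio in 24hr-KO, r was -0.802 over the same 45 genes, both of which contain the 24hr-KO library.

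To compare barcodes at equal depth, each was thinned to 1400 UMIs, which left out 801 barcodes of 0hr-WT, 421 of 24hr-WT and 0 of 24hr-KO as too shallow. The mean number of UMIs from the 45 genes was 3.60 ± 1.99 (SD over 7230 barcodes) in 0hr-WT, 7.18 ± 3.28 (9482 barcodes) in 24hr-WT and 6.94 ± 2.96 (13920 barcodes) in 24hr-KO. The difference between the unstimulated and the stimulated libraries was one of the whole distribution. The 24hr-WT and 24hr-KO libraries had the same median of 7 and the same quartiles of 5 and 9. Of the thinned barcodes 3.47%, 43.3% and 39.3% had 8 or more such UMIs, and 3.06%, 0.390% and 0.144% had 0, where without thinning 1.38%, 0.0808% and 0.00718% had 0. The variance over the mean was 1.10 in 0hr-WT, close to the 1 of Poisson counting, and 1.50 and 1.26 in 24hr-WT and 24hr-KO. Without thinning, the median was 24.7, 52.1 and 49.5 UMIs per 10000.

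**Figure D5:**
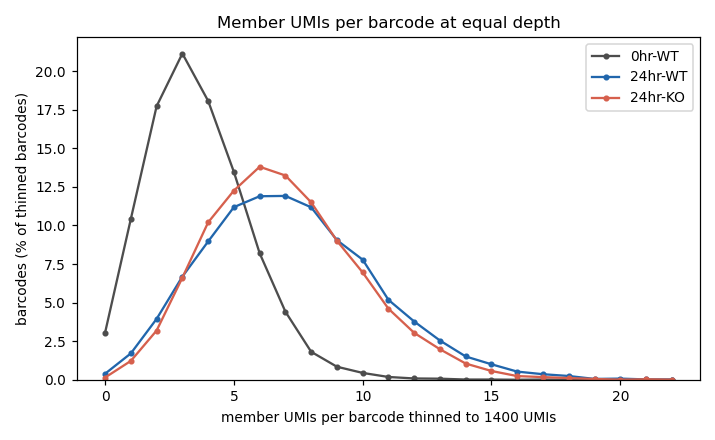
Distribution of the number of UMIs from the 45 genes per barcode after thinning to 1400 UMIs, as a percentage of each library's thinned barcodes. The unstimulated library peaks at 3 UMIs and both stimulated libraries lie to its right with medians of 7, the WT library with the wider spread.

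Cell cycle genes also differed between the libraries. The summed level of 10 of them was 19.6, 101 and 145 CPM in 0hr-WT, 24hr-WT and 24hr-KO. For stimulation this was a 5.15-fold difference, with 9 of 10 at least 2-fold higher, against 18.7% of all genes. The remaining gene was lower, at a log2 ratio of -0.94. For the knockout the summed log2 ratio was 0.52, with 10 of 10 higher, against 68.1% of all genes. After thinning, 96 barcodes of 24hr-WT had 3 or more cell cycle UMIs. They had 4033 CPM of the 45 genes, against 5168 in the 8483 with 0. Their median before thinning was 3253 against 12528 UMIs, and their median share of mitochondrial UMIs 8.99% against 1.36%. In 24hr-KO the 215 such barcodes had 4199 CPM, against 5019 in the 11440 with 0. Their median before thinning was 3118 against 7415 UMIs, and their median mitochondrial share 6.84% against 1.43%. Barcodes with more cell cycle UMIs were thus also shallower and richer in mitochondrial UMIs, and the split was matched for neither. The part of the cell cycle in the ratios of the 45 genes was not tested.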

How the data were processed

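Single-cell RNA libraries of sorted spleen CD4+ T cells (0hr-WT, 24hr-WT and 24hr-KO, 1 each) were re-analysed. The authors aligned reads to mm10 and counted UMIs with Cell Ranger, version 3.1.0 per the file headers, and deposited counts per gene and called barcode without normalization. The labels name a 5′ and the methods a 3′ kit, so whether the counts come from the start or the end of transcripts is not known. Levels are not divided by length, and levels of different genes are therefore not compared.

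Barcodes were kept above 200 genes and below 15% mitochondrial UMIs, 8031, 9903 and 13920 with 37133949, 116979076 and 106435143 UMIs. UMIs were summed per library and expressed as counts per 1000000 (CPM) with exact Poisson intervals, and log2 ratios of 2 libraries with the exact binomial interval of their UMIs, at the 95% level. With 1 library per group no p-value was computed, and the thresholds (a log2 ratio of 1 for stimulation and 0.32 for the knockout) are descriptive. No doublets were removed. The lists of other genes were written for this work, and all genes means those with 10 or more UMIs over the libraries, or over the barcodes compared. Thinning to 1400 UMIs used a fixed seed. Gene positions are from GENCODE M21 (GRCm38) and promoter windows from RefSeq (GRCm38.p6).

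Every gene of the set is named. In full are given fixed examples of each role, the 5 highest and 5 lowest ratios of each comparison and, of other lists, the highest and lowest genes for stimulation. Some marker genes and the values that need them are not reported here. Members and lists were chosen with earlier results of these data known. On simulated counts the true log2 ratio of 93.5% of 200 changed genes lay in its interval for the stimulation comparison (13297 genes) and of 96% for the knockout comparison (13504 genes). These counts were drawn from the Poisson model that the intervals assume. The result therefore checks the calculation only and does not cover variation between cells or libraries. Alternatives were other scalings, barcode weights and filters, depth matching and other minimums of UMIs. Python 3.11.15, numpy 2.4.6, scipy 1.17.1, pandas 2.3.3 and matplotlib 3.10.9 were used.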

Additional observations from a re-analysis of the deposited data

How the results depend on the processing

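The stimulation result kept its direction under every alternative run. Its median log2 ratio was 1.06. Over the other scalings, filters and weights of whole libraries, outside the unscaled version, it ran from 1.01 (mean of barcode fractions) to 1.23 (median-ratio scaling). At least 2-fold higher were 23 to 33 of 45 genes. The median of all genes was -0.0079 with barcode fractions and 0.055 with median-ratio scaling. The share of all genes past 2-fold under each alternative is not given here, so the counts cannot be set against it. Within single depth classes the median over the 45 genes was lower, at 0.82, 0.77, 0.70, 0.97 and 0.93 from the shallowest to the deepest. Taken as UMIs per barcode without scaling for depth, the median was 2.41 and all 45 genes were past 2-fold, where the median of all genes was 1.24.

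The knockout median of -0.071 was below 0 under every alternative that used all depths or barcodes of at least 4000 UMIs together, at -0.24 with median-ratio scaling, -0.70 as UMIs per barcode and -0.21 when centred on the median of all genes, an alternative chosen after seeing the data, and otherwise between -0.074 and -0.017. The count of genes lower by 0.32 or more on the log2 scale, 1 as reported, was 6, 45 and 4 under these 3, and 0 in barcodes of at least 4000 UMIs and with depth classes weighted as in 24hr-WT. The count higher by 0.32 or more, 0 as reported, was 1 with barcode fractions, 4 after thinning and 6 in barcodes under 4000 UMIs. With barcode fractions and after thinning the median of all genes was 0.15. The share of all genes past 0.32 under each alternative is not given here, so these counts cannot be set against it. The median of all genes in this comparison moved from 0.14 to -0.034 with median-ratio scaling and to -0.49 as UMIs per barcode, which accounts for the shift of all members together. Ratios in barcodes under 4000 UMIs, of 8000 or more and of the class that begins at 8000 were also added after seeing the data. Within the depth classes the median was 0.081, 0.15, 0.099, 0.0066 and -0.062 from the shallowest to the deepest, and it was 0.094 under 4000 UMIs and -0.045 from 8000 on. *Rrp9*, past the threshold at -0.33, was at 0.023 (-0.19 to 0.24) under 4000 UMIs. In the alternatives on whole libraries no gene past a threshold changed sign. No paired analysis was possible because each group has 1 library and no test was made. *Utp14b* has the fewest UMIs and the widest intervals, and the absence of replicates limits every difference.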
